A study of Homo sapiens with 23 samples.

Results

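The replication-dependent histone genes were followed through cardiac differentiation of human embryonic stem cells. Members were the protein-coding rows of the deposited count table whose GENCODE symbol, found by Ensembl identifier, is H1-1 to H1-6 or begins with H2AC, H2BC, H3C or H4C and a digit. The rule found 66 genes among the 57477 genes used: 6 for linker histone H1, 15 for H2A, 19 for H2B, 11 for H3 and 15 for H4. The annotation holds 4 more genes that fit the rule (H2AC18, H2AC19, H3C2 and H3C3), whose identifiers did not match a row and which were not analysed here.

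Total RNA depleted of ribosomal RNA was sequenced from cells of H1-hESC, an established human embryonic stem cell line labelled wild type, at 8 time points. The stages named in the labels are stem cells on Day 0, mesendoderm on Day 1, cardiac mesoderm on Day 3, cardiac progenitors on Days 5 and 7, and cardiomyocytes on Days 10, 14 and 28. Each day has 3 libraries, except Day 10, which has 2. All groups share the line, and the only labelled difference between them is the day.

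The nucleosome is built from the core histones H2A, H2B, H3 and H4, and linker histone H1 binds where DNA enters and leaves it. The replication-dependent genes are clustered, mostly lack introns, and are transcribed in S phase, when new DNA must be packaged. Their mRNAs usually end in a conserved stem-loop in place of a poly(A) tail, bound by the protein SLBP, and are degraded when DNA synthesis stops. Because the RNA was selected by ribosomal depletion, transcripts without a poly(A) tail are not lost at that step.

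The stem-loop is shown first because it is the shared 3′ signal that sets these transcripts apart. The histone stem-loop pattern was GG, any pair of bases, CTTTT, any base, AG, any pair of bases, CC. It was searched on the coding strand within 200 bases after the stop codon. It was found in 62 of the 66 members and in 8 of 19858 other protein-coding genes (0.0403%). Other means outside the 66 members, so this set is not free of histone genes. It can hold variants such as H2AX and the annotated genes that fit the rule but matched no row. The 8 genes are not named here. The sequences below are 5′ to 3′ on the coding strand of GRCh38 (hg38), with the stem-loop in capitals and 5 flanking bases on each side.
H1-1 (chr6:26017032-26017057, minus strand): ccaacGGCTCTTTTAAGAGCCaccta
H1-2 (chr6:26055739-26055764, minus strand): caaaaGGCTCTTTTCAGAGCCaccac
H2AC6 (chr6:26124664-26124689, plus strand): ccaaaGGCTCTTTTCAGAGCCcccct
H2BC21 (chr1:149886183-149886208, minus strand): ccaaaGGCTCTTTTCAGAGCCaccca
H4C5 (chr6:26204996-26205021, plus strand): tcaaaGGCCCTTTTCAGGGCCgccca
The 5 examples show the split between classes. All 14 H4 genes with the motif open their stem with GGCCCT, while 47 of the 48 genes of the other classes open it with GGCTCT, the exception being H2AC15. The last loop base was C in 48 genes, A in 9 and T in 5. No match was found in that window for H2BC10, H2BC12L, H3C6 and H4C13.

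Upstream sequence is shown for pairs of H1, H2B and H4 genes whose later levels differ widely. A RefSeq promoter (GRCh38.p14, 250 bases before to 50 after the start) was matched for 60 of the 66 members. Each of the following is the 180 bases before the start site, 5′ to 3′ on the gene's strand. Capitals mark the TATA box letters TATAAA, the CCAAT box, the octamer read by POU2F1 (ATTTGCAT), the H1 gene element AAACACA and the H4 gene element GGTCCG, on either strand, and adjoining or overlapping matches run together.
H1-1 (chr6:26017788-26017967, minus strand): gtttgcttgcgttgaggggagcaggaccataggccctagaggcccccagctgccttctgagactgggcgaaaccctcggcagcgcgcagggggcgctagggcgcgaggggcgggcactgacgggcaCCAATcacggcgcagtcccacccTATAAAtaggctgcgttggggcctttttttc
H1-2 (chr6:26056471-26056650, minus strand): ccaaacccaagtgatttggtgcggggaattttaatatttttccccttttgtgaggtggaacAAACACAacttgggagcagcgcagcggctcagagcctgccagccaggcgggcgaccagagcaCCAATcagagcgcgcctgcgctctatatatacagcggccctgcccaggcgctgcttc
H2BC21 (chr1:149886683-149886862, minus strand): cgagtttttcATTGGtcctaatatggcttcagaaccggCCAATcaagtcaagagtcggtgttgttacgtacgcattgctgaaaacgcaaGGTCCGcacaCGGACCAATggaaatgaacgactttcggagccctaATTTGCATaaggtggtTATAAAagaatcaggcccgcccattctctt
H2BC14 (chr6:27814842-27815021, plus strand): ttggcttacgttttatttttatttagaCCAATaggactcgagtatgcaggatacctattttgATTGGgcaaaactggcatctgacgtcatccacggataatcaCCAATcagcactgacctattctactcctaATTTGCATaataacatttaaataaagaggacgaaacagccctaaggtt
H4C5 (chr6:26204430-26204609, plus strand): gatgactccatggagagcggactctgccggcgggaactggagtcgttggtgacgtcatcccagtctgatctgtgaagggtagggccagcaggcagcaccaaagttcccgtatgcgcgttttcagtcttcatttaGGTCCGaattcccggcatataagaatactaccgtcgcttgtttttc
H4C13 (chr6:27873535-27873714, minus strand): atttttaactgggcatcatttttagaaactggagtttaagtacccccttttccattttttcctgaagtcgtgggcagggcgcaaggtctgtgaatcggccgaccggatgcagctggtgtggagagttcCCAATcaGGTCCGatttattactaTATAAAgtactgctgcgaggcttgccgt
Over the whole promoter window and both strands, CCAAT was present in all 6 H1, 14 H2A, 18 H2B and 9 H3 promoters matched but in 3 of 13 H4 promoters, against 35.7% of all 27305 promoters. GGTCCG was in 12 of 13 H4 promoters and in 3 of the other 47 member promoters, against 11.2% of all. The octamer was in 11 of 14 H2A and 14 of 18 H2B promoters, against 1.80% of all, and AAACACA in 6 of 6 H1 promoters, against 5.76%. TATAAA was in 39 of 60, against 12%. Within the pairs shown, H2BC21 and H2BC14 both carry the octamer and H4C5 and H4C13 both carry GGTCCG. H4C13 also carries TATAAA and CCAAT, which H4C5 lacks, H2BC21 carries GGTCCG, which H2BC14 lacks, and H1-1 carries TATAAA, which H1-2 lacks. A match describes these letters and is not evidence of binding.

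Most members lie in 3 blocks of the histone cluster on chromosome 6p: 8 from H2AC1 to H2BC3 (chr6:25723397-26043713), 24 from H1-2 to H4C8 (chr6:26055740-26285638) and 21 from H2BC11 to H2BC17 (chr6:27125897-27893891). A further 9 lie at chr1:149782689-149887965, 2 (H2AC25 and H2BC26) at chr1:228434777-228463104, and H4C16 and H2BC12L stand alone on chromosomes 12 and 21. Near-identical copies limit what can be read for some genes. At 7 members (H3C14, H3C15, H4C11, H4C12, H4C14, H4C15 and H2BC12L) under 10% of exonic 50-base stretches were unique in the genome, and their low levels are uncertain, while 51 members were over 90% unique.

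Library totals ran from 4330334 to 22089595 counts. Levels are given as CPM (counts scaled to a common library size) after correction by TMM, which aligns the libraries on genes that change little. The filter on low counts kept 60 members (6 H1, 11 H2A, 18 H2B, 10 H3 and 15 H4). H2AC1, H2AC7, H2AC15, H2AC17, H2BC12L and H3C4 were not tested, with 0 to 37 counts over all 23 libraries. Of these, H3C4, H2AC7 and H2AC17 share 96.6%, 85.3% and 71.0% of their exonic bases with another annotated gene on the same strand. The part of this overlap in their low counts was not tested. Marker genes followed the labelled days: the summed level of 8 pluripotency genes fell from a mean of 7630 CPM on Day 0 to 3.09 on Day 28, 7 mesendoderm genes were highest on Day 1 at 4336, and 10 cardiomyocyte genes rose from 61.9 to 41258. Markers of other cells were also present on Day 28, with 3756 CPM over 8 fibroblast genes and 2943 over 5 smooth muscle genes.

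Library 3 of Day 5 stood apart. Its summed histone level was 39803 CPM, 2.73 times the mean of the other Day 5 libraries (14571), and its total of 4330334 counts was the lowest of all. The excess was similar in every class, from 2.58 times for H2B to 2.87 times for H1. For the comparisons with Day 5, the edgeR counts of members called lower, the members' medians and the summed histone levels are given with and without it. So are the changes of H4C6, H2BC4 and H1-5. Results of the other gene lists, SLBP among them, are given only with it. Other short protein-coding genes moved in the same direction within that day: 1001 non-histone genes with under 1000 exonic bases took 0.731% of counts in library 3, 0.661% in library 1 and 0.460% in library 2. The part of this in the histone result was not tested.

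Summed over all 66 genes, the mean histone level was highest on Day 1, was above that of Day 0 also on Day 3, and was below it from Day 7 on. The Day 5 mean was 1.5 times Day 0 with all libraries and 0.952 times without library 3, so its direction rests on that library. The Day 0 libraries were at 15566, 14880 and 15448 CPM and the Day 1 libraries at 37835, 29409 and 40689. Day 3 gave 15067, 25592 and 23203, Day 5 gave 16241, 12901 and 39803, and Day 7 gave 8598, 9674 and 11218. The level was 4441 and 4297 on Day 10, 1202, 1734 and 2171 on Day 14, and 1302, 1462 and 1509 on Day 28. All Day 1 libraries lay above all Day 0 libraries, Days 3 and 5 overlapped with Day 0, all libraries from Day 7 on lay below them, and Days 14 and 28 overlapped. In means, Day 1 was 2.35 times Day 0 and Day 28 was 10.7-fold lower than Day 0. In a bulk sample, fewer cycling cells and less histone RNA per cell cannot be told apart.

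**Figure D1:**
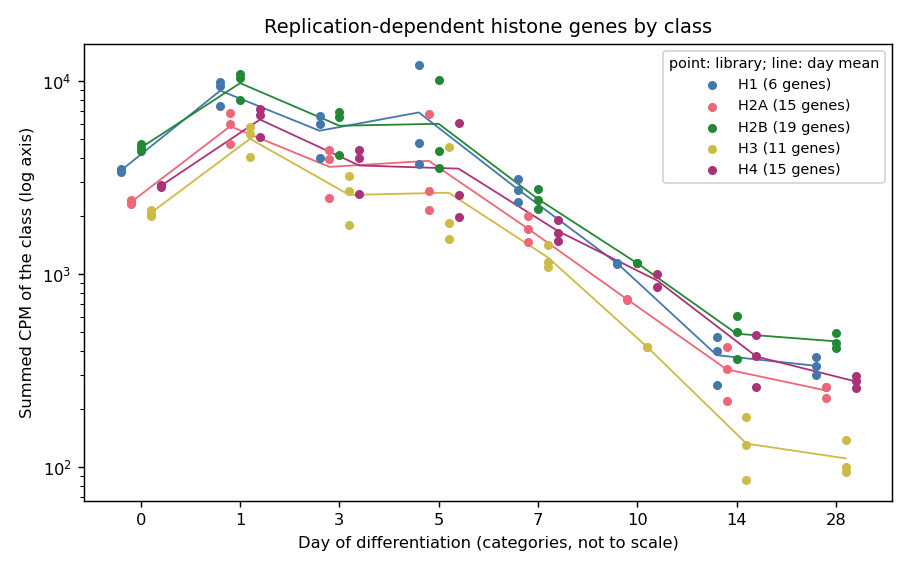
Summed CPM (TMM-scaled, log axis) of each histone class in every library, by day of differentiation; points are libraries and lines join the day means. All 5 classes peak in mean on Day 1 and are lowest on Day 28, and 1 Day 5 library lies high in each class.

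The classes moved together but not by equal amounts. H1 went from 3454 ± 70.3 CPM on Day 0 to 8956 ± 1312 on Day 1 and 336 ± 36.1 on Day 28 (SD, n = 3 each). H2A went from 2365 ± 54.7 to 5853 ± 1071 and 250.1 ± 17.9, and H2B, the most abundant class on Day 0, from 4530 ± 181 to 9790 ± 1560 and 449 ± 42.8. H4 went from 2871 ± 47.2 to 6339 ± 1036 and 278 ± 18.8. H3 had the largest loss, from 2078 ± 70.6 to 5039 ± 902 and 111 ± 24.2, or 18.7-fold from Day 0 to Day 28 against 9.46-fold to 10.3-fold for the other classes. H3 therefore took 13.6% ± 0.342 of histone CPM on Day 0 and 7.78% ± 1.38 on Day 28, with no overlap of libraries. H1 took 22.6% ± 0.203 on Day 0, 29.7% ± 0.938 on Day 5 and 23.6% ± 1.75 on Day 28. Class sums are described without a test.

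From stem cells to mesendoderm, nearly the whole family rose at once. In Day 1 against Day 0, 52 of 60 tested members were called higher and 0 lower (edgeR quasi-likelihood test, Benjamini-Hochberg adjusted p under 0.05), where 15.3% of all 22245 genes tested were called higher. None was lower at an unadjusted p under 0.05, and DESeq2 also called 52 higher and 0 lower. The median log2 change of the members was 1.19, against 0.05 for all genes. The libraries of the 2 days did not overlap for 56 of the 60. The share over all genes is not given here, so this count is not read as a result about the members. By class, 5 of 6 H1, 10 of 11 H2A, 17 of 18 H2B, 9 of 10 H3 and 11 of 15 H4 genes rose. Nothing in the labels says that the libraries of a day came from separate differentiations, so the spread behind each p-value may be technical. Successive comparisons share the libraries of a day and are not independent of each other.

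The 2 largest rises belonged to genes with low levels. H2BC1, best known as a testis H2B gene, was at 0.492, 0.424 and 0.519 CPM on Day 0 and 3.09, 2.64 and 3.46 on Day 1, a log2 change of 2.65 ± 0.43 (SE; edgeR adjusted p = 0.000134). H1-6, the testis-specific H1t, was at 3.17, 3.11 and 2.94 on Day 0 and 15.1, 12.1 and 16.5 on Day 1 (log2 change 2.24 ± 0.28, edgeR adjusted p = 1.82e-06). In both genes every Day 1 library was above every Day 0 library. The next largest was that of H2AC11, an abundant H2A gene, which rose from 261 ± 8.74 to 802 ± 67.1 CPM (log2 change 1.62 ± 0.33, edgeR adjusted p = 0.000628).

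Abundant genes rose by smaller and more even amounts. H1-3 was at 886, 845 and 844 CPM on Day 0 and 2579, 2089 and 2691 on Day 1, and its log2 change was 1.52 ± 0.29 (edgeR adjusted p = 0.000383). H1-2 (1.44 ± 0.32), H1-4 (1.46 ± 0.33), H2AC8 (1.38 ± 0.32), H3C8 (1.37 ± 0.38) and H4C4 (1.47 ± 0.35) rose by similar log2 amounts, each with no overlap of libraries. H1-5, the most abundant H1 gene, rose from 1220 ± 23.9 to 2774 ± 453 (log2 change 1.19 ± 0.38, edgeR adjusted p = 0.0209), a call that ended without Day 0 library 1 or 2 or Day 1 library 1 or 3 (edgeR adjusted p 0.0511 to 0.0655).

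H1-1 differed from the rest of its class on Day 1. It was at 17.2, 17.5 and 16.1 CPM on Day 0 and 19.9, 15.8 and 20.1 on Day 1, with overlapping libraries and a log2 change of 0.14 ± 0.35 (edgeR adjusted p = 0.795). H4C13 (0.56 ± 0.34) and H4C16 (0.60 ± 0.31), both H4 genes, had small positive changes that did not pass the test.

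Genes that replicate DNA were called in both directions on Day 1. Of 35 DNA synthesis genes (MCM helicase subunits, PCNA, ribonucleotide reductase and the like), 8 were called higher and 7 lower, with a median log2 change of 0.24, where 16.5% of all genes were called lower, and of 24 mitosis genes 0 were called higher and 11 lower, with a median of -0.55. Their summed level went from 6456 ± 85.4 to 7109 ± 601 CPM for DNA synthesis and from 4915 ± 239 to 3074 ± 188 for mitosis. The ratio of summed histone to summed DNA synthesis CPM was 2.37 ± 0.0473 on Day 0 and 5.04 ± 0.422 on Day 1. Other short genes moved in the direction of the histones, by less: their share of counts was 0.515% to 0.553% on Day 0 and 0.666% to 0.806% on Day 1, and the Day 1 library with the lowest histone level, library 2, also had the lowest short-gene share. Their part in the result was not tested.

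**Figure D2:**
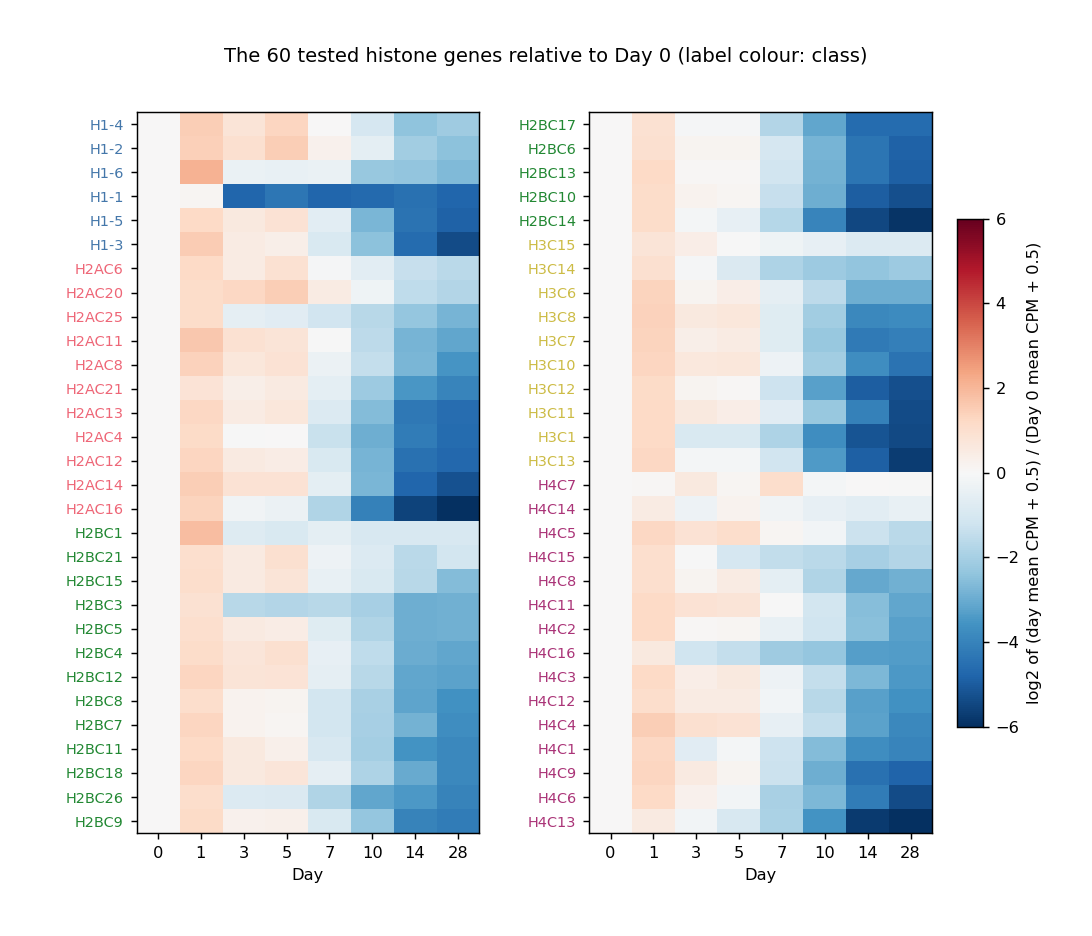
Each of the 60 tested histone genes by day, as log2 of day mean CPM plus 0.5 over Day 0 mean CPM plus 0.5; label colours give the class, and genes are ordered within a class by their Day 28 value. Red on Day 1 and blue from Day 7 or Day 10 on are seen in most rows, and H1-1, H2BC3 and H2BC1 are below their Day 0 level from Day 3.

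Between mesendoderm and cardiac mesoderm the family fell back part of the way. In Day 3 against Day 1, 29 of 60 members were called lower and 0 higher, where 19.0% of all genes were called lower, and the median log2 change was -0.77. At an unadjusted p under 0.05, 1 was higher, and DESeq2 called 28 lower and 0 higher. The count of members called lower was 19 without Day 1 library 1, 17 without Day 1 library 3, 14 without Day 3 library 1 and 19 without Day 3 library 3. Of the 35 DNA synthesis genes, 17 were called lower and 0 higher.

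A few genes fell far more than the rest at this step. H1-1 had 314, 371 and 279 counts on Day 0 and 258, 323 and 233 on Day 1, but 7, 0 and 1 on Day 3. That is 18.6 ± 2.47 CPM on Day 1 and 0.137 ± 0.159 on Day 3 (log2 change -6.69 ± 0.54, edgeR adjusted p = 5.41e-10). It had at most 5 counts in any later library. H1-1 encodes the linker histone H1.1.

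H2BC1 fell from 40, 54 and 40 counts on Day 1 to 1, 0 and 2 on Day 3 (edgeR log2 change -5.30 ± 0.61, adjusted p = 9.28e-07) and had 0 counts in all libraries of Days 10, 14 and 28. H2BC3, an H2B gene, was at 8.50, 6.78 and 7.00 CPM on Day 1 and 0.755, 0.778 and 0.904 on Day 3 (log2 change -3.19 ± 0.34, edgeR adjusted p = 6.54e-08). H1-6 was at 14.6 ± 2.24 CPM on Day 1 and 2.24 ± 0.726 on Day 3 (log2 change -2.68 ± 0.30). In all 4 genes, the Day 3 libraries lay below every Day 1 library.

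The early losses were also compared by position. All 7 tested genes of the block from H2AC1 to H2BC3, which holds H1-1, H2BC1, H2BC3, H3C1 and H4C1, were called lower on Day 3, with a median log2 change of -2.10 and a range of -6.69 to -1.09. The medians were -0.77 in the next block, -0.72 in the third on 6p and -0.69 in the large chromosome 1 block, with 11 of 22, 5 of 19 and 3 of 9 called lower. Genes outside the main cluster also had larger falls, with -1.65 ± 0.34 for H2AC25, -1.89 ± 0.32 for H2BC26 and -1.79 ± 0.31 for H4C16. On Day 1 against Day 0, the 3 blocks on 6p had medians of 1.18, 1.22 and 1.21. The blocks are runs of genes in chromosomal order, and their limits do not follow the widest gaps. H2BC3 ends the first block at 26043713, and H1-2 starts the next at 26055740. Within the first block, H2BC1 ends at 25727345 and H1-1 starts at 26017032. Another cut could give other medians, and the blocks are described without a test.

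**Figure D3:**
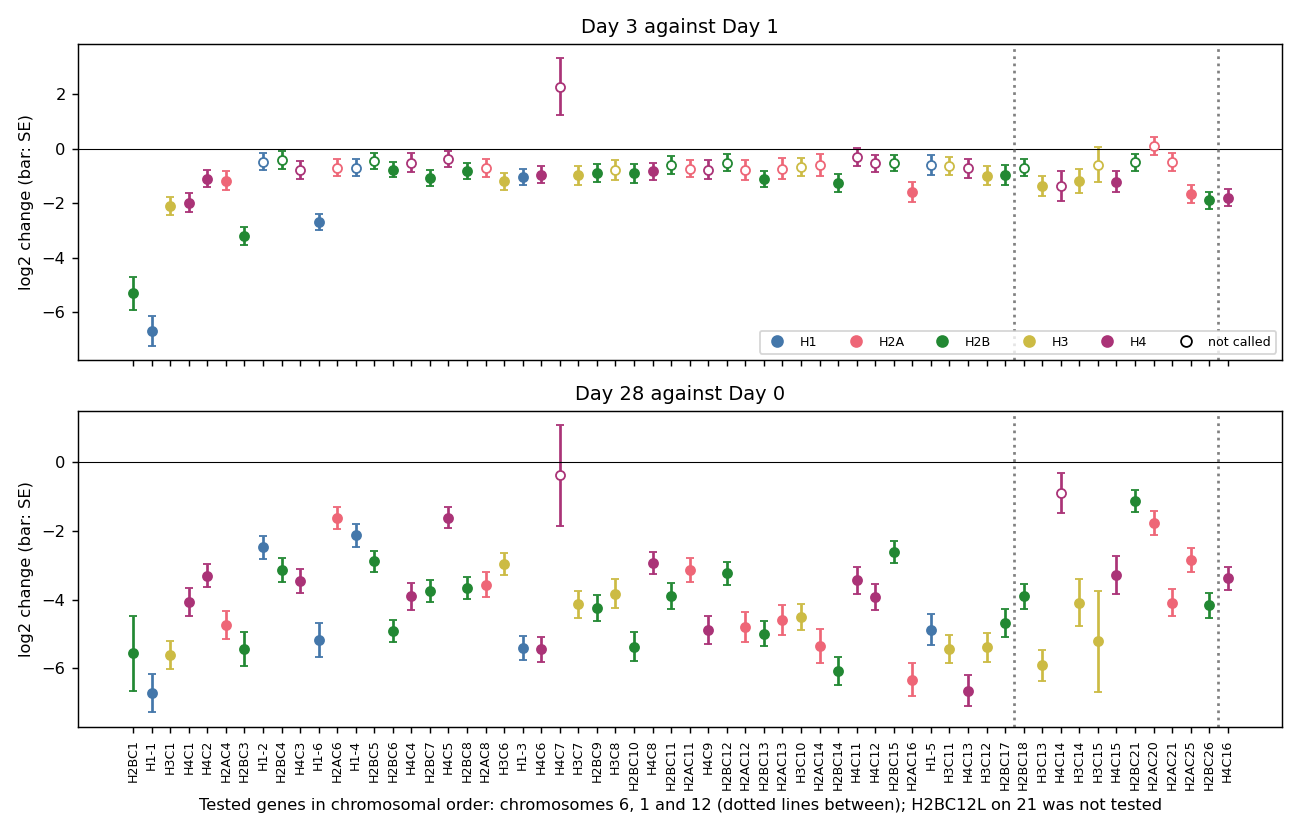
Log2 change with its SE for each tested histone gene in chromosomal order, Day 3 against Day 1 above and Day 28 against Day 0 below; filled points passed the adjusted p threshold and dotted lines separate chromosomes. At the left, the 7 genes of the first block lie at -1.09 or lower on Day 3.

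Between stem cells and cardiac mesoderm, few members were called, although 43 of the 60 had a positive log2 change, with a median of 0.36. In Day 3 against Day 0, 8 of 60 members were called higher and 6 lower, shares below the 19.1% and 17.9% of all genes called in those directions. The 6 called lower were H1-1, H2BC1, H2BC3, H2BC26, H3C1 and H4C16, and the 8 called higher were H1-2, H2AC11, H2AC20, H2BC12, H4C4, H4C5, H4C7 and H4C11. H2AC20 was at 186, 177 and 188 CPM on Day 0 and at 289, 509 and 496 on Day 3, with no overlap (log2 change 1.23 ± 0.34, edgeR adjusted p = 0.00582). H4C7 had 0 to 1 counts per library on Day 0 and 2 to 5 on Day 3, so its call rests on few counts. The counts depended on single libraries: 19 were higher and 3 lower without Day 3 library 1, which had the lowest histone level of its day, and 1 was higher without Day 0 library 1. In all, 4363 of 21337 genes were called higher without Day 3 library 1. With only the libraries of these 2 days in the fit, 25 members were higher, as were 4626 of all 18736 genes. The number called higher was 4 without Day 0 library 2, 3 without Day 3 library 2 and 2 without Day 3 library 3.

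Few members were called between Days 3 and 5, and the values depended on Day 5 library 3. In Day 5 against Day 3, 0 members were called higher and 1 (H4C15) lower, where 10.3% and 6.33% of all genes were called, and the members' median log2 change was -0.03. None was higher at an unadjusted p under 0.05, 3 were lower, and DESeq2 called 0 and 1. Without Day 5 library 3, 11 members and 1374 of all 22416 genes were called lower, and the members' median was -0.62. The number of members called lower was 0 without Day 3 library 2 or Day 5 library 2, and 2 without Day 3 library 3. Libraries of the 2 days overlapped for every member, which also has no share over all genes beside it and is not read as a result. H1-2 illustrates the spread on Day 5, with 1407, 1103 and 3713 CPM.

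From Day 5 to Day 7 histone genes and DNA synthesis genes were called lower. In Day 7 against Day 5, 37 of 60 members were called lower and 1 higher, where 5.02% of all genes were called lower and 5.32% higher, and the median log2 change was -1.19, or -0.53 without Day 5 library 3. The lower calls numbered 8 without Day 5 library 3, where 1808 of all 22416 genes were called lower. They numbered 8 without Day 7 library 1 (583 of 22355 genes) and 10 without Day 7 library 2 (432 of 22359). When only the libraries of these 2 days entered the fit, 2 were called lower (227 of 15989 genes). In CPM, the summed level of Day 7 (9830 ± 1317) was below the 3 Day 5 libraries, and the Day 5 mean was 2.34 times that of Day 7, or 1.48 times without library 3. H4C6, an H4 gene, was at 255, 192 and 599 CPM on Day 5 and 97.9, 99.5 and 107 on Day 7, the largest fall among members with no overlap (log2 change -1.78 ± 0.31, edgeR adjusted p = 0.00027). Without library 3 its log2 change was -1.14 (edgeR adjusted p = 0.000907). H2BC4 changed by -1.45 ± 0.33, and by -0.76 without that library (edgeR adjusted p = 0.0404). H1-5 was called lower at -1.49 ± 0.38, a call that ended without it (-0.81, edgeR adjusted p = 0.106). The gene called higher, H4C7, had 0, 0 and 1 counts on Day 5 and 1, 7 and 8 on Day 7, with overlapping libraries, and neither DESeq2 nor the fit without Day 5 library 1 or 2 or Day 7 library 2 or 3 called it. All but 1 of the 35 DNA synthesis genes were called lower (34, median -1.34), as were 12 of 24 mitosis genes. The counts of these 2 lists are given only with Day 5 library 3.

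The fall continued as cardiomyocytes formed. In Day 10 against Day 7, 32 of 60 members were called lower and 0 higher, where 3.50% of all genes were called lower and 4.17% higher, with a median log2 change of -1.34. None was higher at an unadjusted p under 0.05 and DESeq2 called 39 lower and 0 higher. H2BC14 was at 67.5, 67.0 and 77.8 CPM on Day 7 and 11.6 and 16.8 on Day 10 (log2 change -2.32 ± 0.41, edgeR adjusted p = 0.000874), with no overlap. H1-5 fell from 792 ± 144 to 184 ± 3.39 CPM, while H1-2 was at 886 ± 141 and 501 ± 3.77 and did not pass the test (-0.82 ± 0.36, edgeR adjusted p = 0.169). With 2 libraries on Day 10, single libraries weighed heavily: 4 members were called lower without Day 10 library 1, 14 without Day 10 library 2 and 19 without Day 7 library 3.

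In Day 14 against Day 10, 37 of 60 members were called lower and 0 higher, where 2.11% of all genes were called lower and 1.64% higher, and the median log2 change was -1.47. None was higher at an unadjusted p under 0.05 and DESeq2 called 43 lower and 0 higher. H1-3 was at 159 and 151 CPM on Day 10 and 25.6, 42.1 and 35.3 on Day 14 (log2 change -2.17 ± 0.32, edgeR adjusted p = 0.00029). H4C13 fell from 19.8 ± 0.754 to 4.01 ± 2.15 CPM (-2.31 ± 0.42). Of the 35 DNA synthesis genes, 3 were called lower, with a median of -0.40, and of the 24 mitosis genes 7, with a median of -0.95. The ratio of summed histone to DNA synthesis CPM went from 4.72 ± 0.0873 on Day 10 to 2.32 ± 0.402 on Day 14. The number of histone genes called lower was 20 without Day 10 library 1, 10 without Day 10 library 2 and 9 without Day 14 library 1.

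Few histone genes were called in Day 28 against Day 14. Of the 60 members, 4 (H2BC7, H2BC15, H3C11 and H4C6) were called lower and 0 higher, where 7.78% of all genes were called lower and 7.96% higher, and the median log2 change was -0.38. None was higher at an unadjusted p under 0.05, and DESeq2 called 4 lower and 0 higher. H3C11 was at 11.6, 18.3 and 26.9 CPM on Day 14 and 6.28, 7.73 and 8.65 on Day 28 (log2 change -1.32 ± 0.36, edgeR adjusted p = 0.0116). Of the DNA synthesis genes, 11 were called higher and 0 lower, with a median of 0.58. Markers of other cells moved in both directions at the same step. Called higher were 7 of 8 fibroblast genes (summed level 663 to 3756 CPM) and 4 of 5 smooth muscle genes (607 to 2943 CPM). Of 8 endoderm and liver genes, 0 were called higher and 5 lower (1925 to 188 CPM). Of 7 endothelial genes, 1 was called higher and 2 lower. The part of these other cells in the histone and DNA synthesis values was not tested. The number of histone genes called lower was 2 without Day 14 library 2, 1 without Day 14 library 3, 1 without Day 28 library 1 and 2 without Day 28 library 2.

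Over the whole course, Day 28 against Day 0, 58 of 60 members were called lower and 0 higher, where 28.4% of all genes were called lower. None was higher at an unadjusted p under 0.05, and DESeq2 also called 58 lower and 0 higher. The median log2 change was -4.08, against 0.09 for all genes. For comparison, 34 of 35 DNA synthesis genes were called lower with a median of -2.56, and 23 of 24 mitosis genes with a median of -2.40. The ratio of summed histone to DNA synthesis CPM was 1.36 ± 0.318 on Day 28, below all libraries of Day 0 (2.33 to 2.42). The Day 28 library with the highest mitosis sum, library 3 (1511 CPM against 885 and 684), also had the highest DNA synthesis sum of its day (1513), while the 3 Day 28 libraries differed little in histone level.

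**Figure D4:**
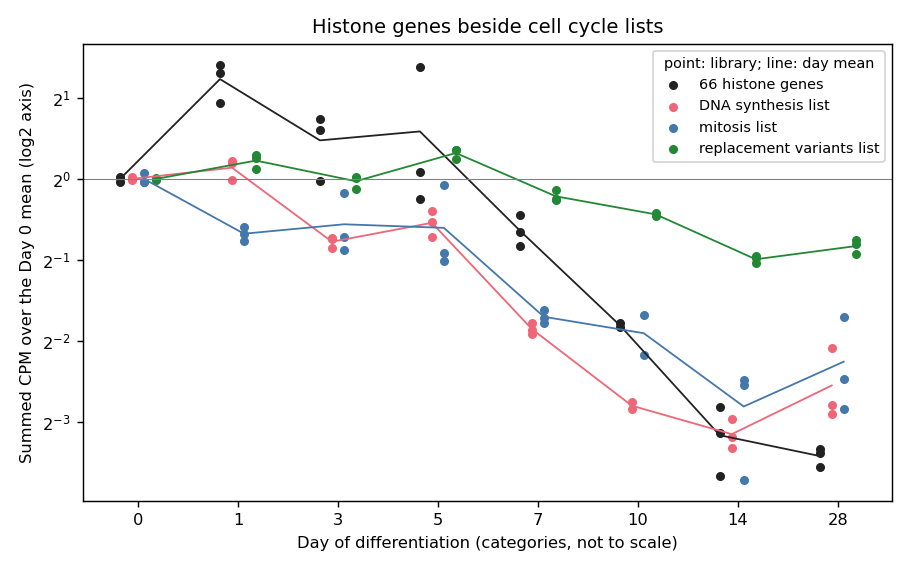
Summed CPM of the 66 histone genes, 35 DNA synthesis genes, 24 mitosis genes and 11 replacement variants, each divided by its Day 0 mean (log2 axis), in every library by day; lines join day means. The histone sum rises on Day 1 without the mitosis sum, and on Day 28 lies below both cell cycle lists relative to Day 0.

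The depth of the fall differed widely between genes of 1 class. The largest log2 changes were -6.73 ± 0.55 for H1-1, -6.65 ± 0.45 for H4C13 and -6.34 ± 0.48 for H2AC16. H4C13 was at 252, 233 and 242 CPM on Day 0 and 1.48, 2.24 and 3.46 on Day 28 (edgeR adjusted p = 2.98e-12). H2AC16 was at 141, 134 and 143 on Day 0 and 1.55, 1.62 and 1.95 on Day 28 (edgeR adjusted p = 2.69e-11). No library of Day 28 came near the Day 0 range in either gene.

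At the other end, H4C7 (-0.37 ± 1.47) and H4C14 (-0.89 ± 0.58) were the members not called, and both were under 1 CPM on both days. H2BC21 had the smallest fall among the well measured genes, from 316, 313 and 335 CPM on Day 0 to 146, 153 and 142 on Day 28 (log2 change -1.13 ± 0.32, edgeR adjusted p = 0.00377). It did not fall from Day 14 (85.4, 113 and 111 CPM) to Day 28, and its Day 28 libraries all lay above those of Day 14, although the change did not pass the test (0.51 ± 0.32, edgeR adjusted p = 0.325). H4C5 was at 325, 342 and 347 CPM on Day 0 and 102, 131 and 100 on Day 28 (-1.61 ± 0.31). H2AC6 went from 255 ± 8.46 to 82.7 ± 10.4 CPM (-1.62 ± 0.32), and its neighbour in rank H2AC20 from 183 ± 5.95 to 54.3 ± 5.64 (-1.75 ± 0.35).

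Some replication-dependent histone genes are known to make polyadenylated transcripts as well. A list of 6 such genes (H1-2, H2AC6, H2BC4, H2BC5, H2BC12 and H2BC21) had a median Day 28 log2 change of -2.68 and a range of -3.23 to -1.13, against -4.15 for the 54 other tested members. All 6 were called lower. H4C5 and H2AC20, which fell as little, are not on the list.

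Because the falls were unequal, the make-up of each class changed. H1-5 and H1-3 together were 60.2% ± 0.260 of H1 CPM on Day 0 and 18.5% ± 6.18 on Day 28, while H1-2 and H1-4 went from 39.3% ± 0.282 to 81.4% ± 6.18. The shift was stepwise: the share of H1-2 and H1-4 was 45.2% ± 0.496 on Day 3, 54.6% ± 1.20 on Day 7, 70.2% ± 0.779 on Day 10 and 76.9% ± 3.60 on Day 14. In CPM, H1-4 was at 644, 576 and 589 on Day 0 and 127, 162 and 127 on Day 28, a log2 change of -2.12 ± 0.34. H1-3 was at 858 ± 23.6 and 20.1 ± 1.79 on these days, and its log2 change was -5.42 ± 0.34. All of these genes encode somatic linker histones.

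The core classes narrowed in the same way. H2BC21 was 7.09% ± 0.351 of H2B CPM on Day 0 and 32.9% ± 3.73 on Day 28, H2AC6 went from 10.8% ± 0.12 to 33.1% ± 4.14 of H2A, H3C6 from 16.9% ± 0.639 to 41.6% ± 6.90 of H3, and H4C5 from 11.8% ± 0.523 to 39.8% ± 4.22 of H4.

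**Figure D5:**
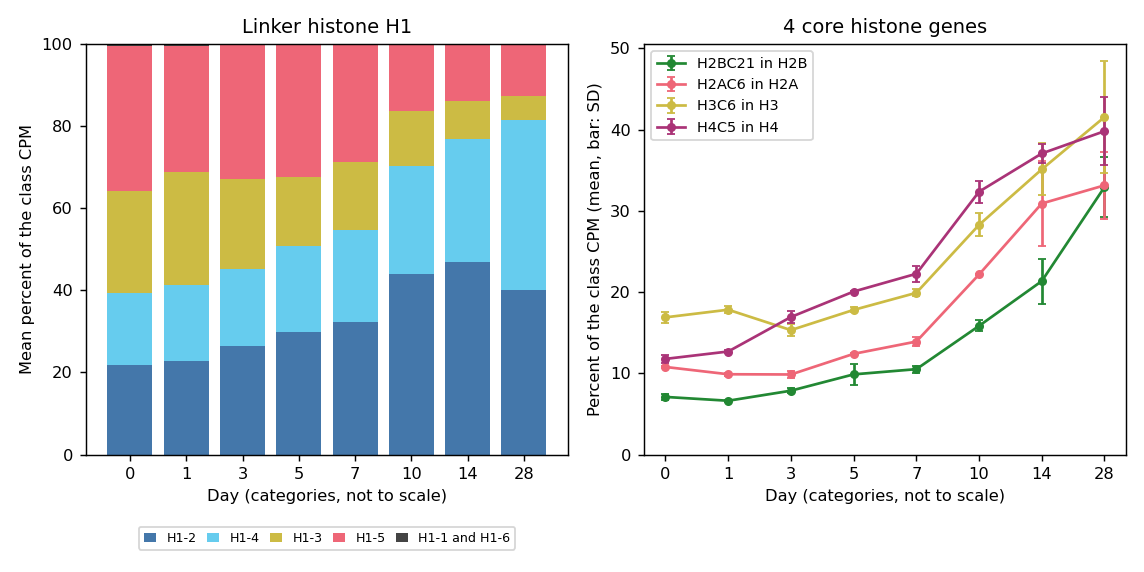
Left, mean share of each gene in H1 CPM by day; right, share of H2BC21, H2AC6, H3C6 and H4C5 in the CPM of their class (mean and SD over libraries). H1-2 and H1-4 go from 39.3% of H1 on Day 0 to 81.4% on Day 28, and each of the 4 core genes is between 32.9% and 41.6% of its class on Day 28.

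H2A and H2B genes that lie head to head share the stretch between their starts. There were 12 such pairs, 8 with both genes tested, and the starts of the genes in tested pairs were 219 to 251 bases apart. The median absolute difference in log2 change within a pair was 0.087 on Day 1 and 0.74 on Day 28 against Day 0, compared with 0.19 and 1.33 over all 198 pairings of a tested H2A with a tested H2B gene. These are descriptions, since pairs share genes with the pairings they are set against.

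Genes that transcribe and process histone mRNA were called in both directions. On Day 1, 1 of 10 transcription genes was called higher and 3 lower, against 15.3% and 16.5% of all genes. NPAT, the coactivator that organises histone locus bodies, went from 58.0 to 28.9 CPM (log2 change -1.0 ± 0.30, edgeR adjusted p = 0.0148), and CASP8AP2 (-1.08 ± 0.27) and POU2F1 (-1.75 ± 0.40) fell as well. Of 10 tested 3′ processing genes, 3 were higher and 2 lower on Day 1, and LSM11, a subunit of the U7 snRNP, rose from 16.8 to 35.0 CPM (1.06 ± 0.27). SLBP itself was at 62.7 CPM on Day 0 and 85.6 on Day 1 (0.45 ± 0.26, edgeR adjusted p = 0.181). With Day 5 library 3 included, it fell in Day 7 against Day 5 (-1.10 ± 0.26, edgeR adjusted p = 0.00672). SLBP was at 39.0 CPM on Day 28 (-0.68 ± 0.26 against Day 0, edgeR adjusted p = 0.0245). U7 RNA (RNU7-1) had 0 counts throughout and was not tested, so its level is not known from these libraries. On Day 28 against Day 0, where 32.1% of all genes were called higher and 28.4% lower, 0 of 10 transcription genes were called higher and 4 lower (CCNE1, E2F1, E2F3 and POU2F1), 1 processing gene was higher (LSM11) and 5 lower, and 0 of 4 decay genes changed in either direction.

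Among 18 histone chaperone and import genes, 13 were called lower and 1 higher on Day 28 against Day 0. The shares over all genes were 28.4% and 32.1%, and the median log2 change of the 18 was -1.23. Among those that act at replication, CHAF1A, the large subunit of the CAF-1 complex, went from 153 to 12.1 CPM (-3.65 ± 0.34), ASF1B from 37.2 to 4.96 (-2.90 ± 0.38) and NASP from 647 to 127 (-2.35 ± 0.36). HIRA, which deposits H3.3 outside S phase, was at 13 and 10.9 CPM (-0.25 ± 0.25, edgeR adjusted p = 0.389). ATRX, a chromatin remodeller that also acts with H3.3, was the gene that rose (103 to 378 CPM, 1.87 ± 0.34). DAXX, another gene of this list, went the other way and was called lower (-1.98 ± 0.28, edgeR adjusted p = 9.9e-07).

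Replacement variants are mostly not tied to S phase, and most of their mRNAs are polyadenylated. Of 11, 3 were called higher and 6 lower on Day 28 against Day 0, with a median of -0.91, against 32.1% and 28.4% of all genes. Among those that rose were the macroH2A genes MACROH2A1 (log2 change 1.17 ± 0.20) and MACROH2A2 (1.57 ± 0.25). H3-3B (-2.23 ± 0.22), H2AZ1 (-2.57 ± 0.22) and H2AX (-2.70 ± 0.36) fell. All 7 CDK inhibitors tested were called higher on Day 28, against 32.1% of all genes, among them CDKN1A (p21), which went from 6.82 ± 1.21 to 631 ± 226 CPM (6.53 ± 0.40).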

How the data were processed

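The values the authors deposited are raw read counts for each gene. Per the submitters' processing notes the authors used Trim Galore 0.65, STAR 2.7.0 and HTSeq on GRCh38 (hg38), with GENCODE v38. The strand setting is not given in the sources used here, so how reads of overlapping genes were assigned is not known. Of 57521 rows, 44 Y copies were left out. Symbols came from GENCODE v44. All 23 libraries entered 1 fit in edgeR 4.0.16 (R 4.3.3): filterByExpr minimum 10, TMM, day as factor, robust quasi-likelihood F-test on 22245 genes, Benjamini-Hochberg, called at 0.05. CPM was computed here. On simulated counts for Day 1 against Day 0 (20456 genes), the test recovered 25 of 100 2-fold changes and 82 of 100 4-fold changes and made 4 false calls. Named were all H1 genes, the 5 highest genes per core class, the largest changes without overlap of libraries, and list members; others named for their position, share or rank were chosen after their values were seen. Members and lists were chosen with earlier results of these data known. Alternatives were RLE and library-total scaling, TMM without the histones, a looser filter, the replicate number as a block, DESeq2 1.42.0, the libraries of 2 days alone, and each library left out.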

Additional observations from a re-analysis of the deposited data

How the results depend on the processing

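Under the alternatives run, 0 results of the named genes were scored as reversed, but not every direction of the histone level held. Without Day 5 library 3, the mean summed histone level of Day 5 moved from above that of Day 0 to below it. The mean summed H1 level of Day 5 likewise moved from above that of Day 3 to below it. Counts of calls were less stable than directions. Fitting only the libraries of the 2 days compared gave 0 members lower on Day 5 against Day 3 (1402 genes of all called), 0 higher and 2 lower on Day 7 against Day 5 (755 genes), 1 higher and 9 lower on Day 28 against Day 14 (6274 genes) and 25 higher on Day 3 against Day 0, with 4499 genes on Day 10 against Day 7 and 1861 on Day 14 against Day 10. Keeping every gene with at least 1 count gave 3 members lower on Day 5 against Day 3. DESeq2 gave 0 members higher on Day 7 against Day 5 and 1305 genes in all on Day 14 against Day 10. Scaling by library totals gave 10 lower on Day 28 against Day 14 and a Day 28 to Day 0 ratio of summed histone level of 0.0853, where the value reported is 0.0931. It moved the median log2 change of all genes to 0.27 on Day 3 against Day 1, 0.16 on Day 3 against Day 0, -0.15 on Day 10 against Day 7 and -0.23 on Day 28 against Day 14. The split of all genes called higher and lower then became 5243 and 2951 (from 4049 and 4227), 4962 and 3246 (from 4257 and 3990), 597 and 1270 (from 928 and 778) and 1250 and 2660 (from 1771 and 1730).

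Replicate numbers did not pair the samples: same-numbered libraries of different days had a median correlation of deviations of -0.00188 over 77 pairs, and 7 of 23 libraries correlated best with their own number. With the replicate number as a block, 2 members were lower on Day 5 against Day 3 and 0 higher on Day 7 against Day 5.

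With 1 library left out in turn, all genes called ranged from 3944 to 8397 on Day 1 against Day 0, 2878 to 7886 on Day 5 against Day 3, 1311 to 3855 on Day 7 against Day 5, 292 to 1005 on Day 10 against Day 7 and 186 to 778 on Day 14 against Day 10. Members called lower ranged from 14 to 28 on Day 3 against Day 1, 0 to 11 on Day 5 against Day 3, 8 to 49 on Day 7 against Day 5 (0 to 1 higher), 4 to 28 on Day 10 against Day 7, 9 to 37 on Day 14 against Day 10 and 1 to 3 on Day 28 against Day 14. On Day 3 against Day 0, 1 to 19 were higher and 3 to 5 lower.

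Depth limited the weakest genes: 7 members had under 50 counts over all libraries, and levels under 1 CPM rest on a few counts.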
